A study of Agaricus bisporus with 8 samples.

Results

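The drought response of water-grown mycelium of the button mushroom Agaricus bisporus was described from 4 of the 8 arrays of a study of vitamin B2 (riboflavin) and drought. The 4 arrays are those of mycelium that never received riboflavin, taken as all arrays whose titles give mesocosm growth on day 3 or day 7 without it. The fungus was var. bisporus, strain H97, a homokaryon whose genome is the species' reference. Hyphae on agar were set on hay in gas-tight chambers and given unsupplemented water for 3 weeks. Irrigation then stopped in the drought arm and went on in the irrigated arm, and mycelium was harvested on day 3 and on day 7. Each array carried drought RNA in one dye and irrigated RNA of the same day in the other, so there were 4 drought and 4 irrigated channels. Drought RNA was labelled with Cy3 in replicate 1 and with Cy5 in replicate 2 of each day, and replicate number therefore equals dye orientation. The titles number the arrays of a day as separate replicates, whereas the descriptions give both as biological replicate 1, the second as a dye swap. P-values thus reflect only how far these arrays differ from one another, and that may be technical.

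Vegetative mycelium takes up water across the whole hyphal surface and depends on turgor to extend. Fungal cells that lose water are known to accumulate compatible solutes such as mannitol, trehalose and glycerol, to raise chaperones and antioxidant enzymes, and to change mitochondrial activity. The respiratory chain passes electrons from NADH and succinate through its complexes and the mobile carrier cytochrome c to oxygen.

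Few probes gave a signal. Of 10413 gene probes, 474 to 797 per array (4.55% to 7.65%) were well above background, by the scanner software's own flag, in at least 1 channel, and 9010 were so in no channel of the 4 arrays. The number above background varied more between Cy5 channels (318 to 718) than between Cy3 channels (338 to 387). A gene was tested when both arrays of the same day had either channel well above background, which held for 452 genes, 126 of them measured in both channels of all 4 arrays. Genes carry only locus numbers of the reference assembly (AGABI2DRAFT_), and 4 of the 452 have a symbol. Sequences of the probes, promoters and proteins were not used here.

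Days pooled, drought RNA was set against irrigated RNA over the 4 arrays, and no gene passed the test (0 of 452, 0%, at an adjusted p under 0.05 in limma). AGABI2DRAFT_136259 came nearest, with 10.6-fold more signal under drought, and after it came AGABI2DRAFT_191238 and CytC2, whose symbol denotes cytochrome c. At an unadjusted p under 0.05 there were 45 genes (9.96% of those tested), 15 higher and 30 lower under drought. That number was 63 without day 3 replicate 2, 29 without day 3 replicate 1, 28 without day 7 replicate 2 and 13 without day 7 replicate 1. With each dye swap of a day counted as 1 value, as the descriptions would have it, 18 genes were called, 3 higher (AGABI2DRAFT_136259, AGABI2DRAFT_195860 and AGABI2DRAFT_193554) and 15 lower. That fit leaves the spread between the arrays of a day out of the error. The median log2 change over all tested genes was -0.029. For a single gene, an exact sign-flip permutation test over 4 arrays cannot give a two-sided p below 0.125.

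**Figure D1:**
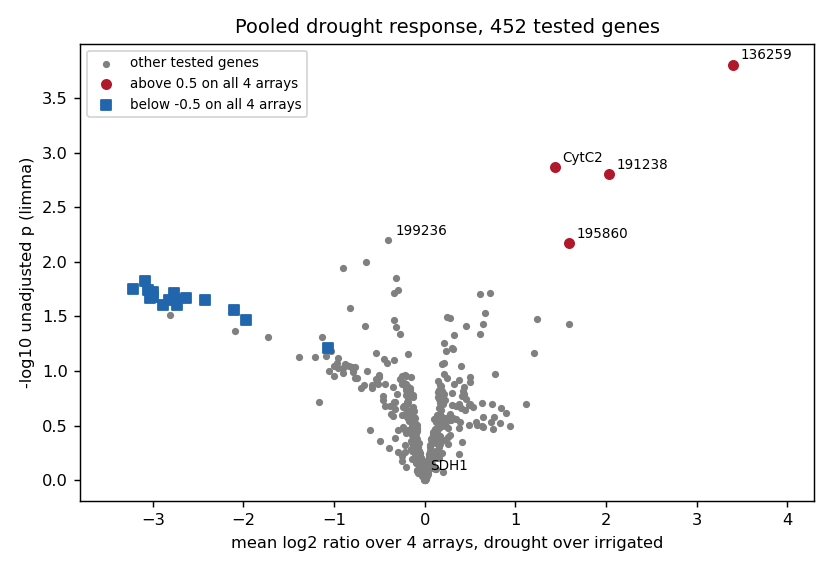
Mean log2 ratio of drought over irrigated RNA over the 4 arrays (x axis) against the unadjusted p of limma (y axis, as -log10) for the 452 tested genes. The 4 genes above 0.5 on all arrays are red circles and the 16 below -0.5 on all arrays are blue squares. AGABI2DRAFT_136259 lies apart at 3.41, whereas the blue genes, at means of -3.22 to -1.07, have adjusted p-values of 0.442 to 0.566.

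The 4 genes with a log2 ratio above 0.5 on all 4 arrays (0.885% of the 452) were AGABI2DRAFT_136259, AGABI2DRAFT_191238, AGABI2DRAFT_195860 and CytC2. Since bulk RNA was measured, a change in the share of hyphae of a kind and a change in RNA per hypha cannot be told apart for these or any later gene. Without day 3 replicate 2, 8 genes met the same limit on the 3 arrays left.

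AGABI2DRAFT_136259 had log2 ratios of 3.90 and 2.46 on the day 3 arrays and of 3.92 and 3.34 on the day 7 arrays, replicate 1 first. All 4 arrays were strongly on the drought side, with replicate 1 the higher of both days. Its normalized log2 signal was 10.93, 10.23, 10.46 and 10.66 in the drought channels and 7.03, 7.76, 6.53 and 7.32 in the irrigated channels (day 3 replicates 1 and 2, then day 7 replicates 1 and 2). The lowest drought level lay above the highest irrigated level, and both channels were well above background on every array. The mean log2 change was 3.41 ± 0.69 (SD, n = 4 arrays), with a limma SE of 0.29 and an adjusted p of 0.0705. That p was under 0.05 in 8 of 17 alternative settings and ranged from 0.000523 (arrays centred on their median) to 0.568 (without day 7 replicate 2), while the log2 change stayed between 3.23 and 4.14.

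AGABI2DRAFT_191238 had ratios of 2.88 and 1.98 on day 3 and 1.16 and 2.13 on day 7. Its drought levels were 13.70, 12.58, 13.15 and 12.04 and its irrigated levels 10.82, 10.59, 11.99 and 9.92. The drought levels were all above the irrigated ones, but only by a small margin between the lowest drought channel (day 7 replicate 2) and the highest irrigated one (day 7 replicate 1). The pooled log2 change was 2.04 ± 0.71 (SD, n = 4 arrays; 4.10-fold; adjusted p 0.236, limma).

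AGABI2DRAFT_195860 was well above background in all 4 drought channels and in none of the irrigated ones. Ratios were 2.44, 0.68, 2.06 and 1.21 in the same array order. As the irrigated side gives only a bound, drought signal was at least 3.02-fold higher in the mean log2 level over the 4 arrays. For that bound, each irrigated channel was put at its own value or at the lowest signal counted above background, whichever was higher. With 1 array left out, the bound ran from 2.48-fold (without day 3 replicate 1) to 3.73-fold (without day 3 replicate 2). Its adjusted p was 0.442 by limma.

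CytC2, the electron carrier between complexes III and IV of the respiratory chain, had ratios of 1.22 and 0.92 on day 3 and 1.96 and 1.66 on day 7. Drought levels were 9.01, 8.0, 10.07 and 9.98 and irrigated levels 7.79, 7.08, 8.11 and 8.32. Drought was higher within every array, although the 2 ranges overlapped because day 3 replicate 2 was low in both channels. The pooled log2 change was 1.44 ± 0.46 (SD, n = 4 arrays; 2.71-fold; adjusted p 0.236, limma). Among the 126 genes measured in both channels of all arrays, fitted alone, 3 passed the test (2.38% of them), all higher under drought: AGABI2DRAFT_136259 (adjusted p 0.00472), AGABI2DRAFT_191238 and CytC2 (0.033 each).

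**Figure D2:**
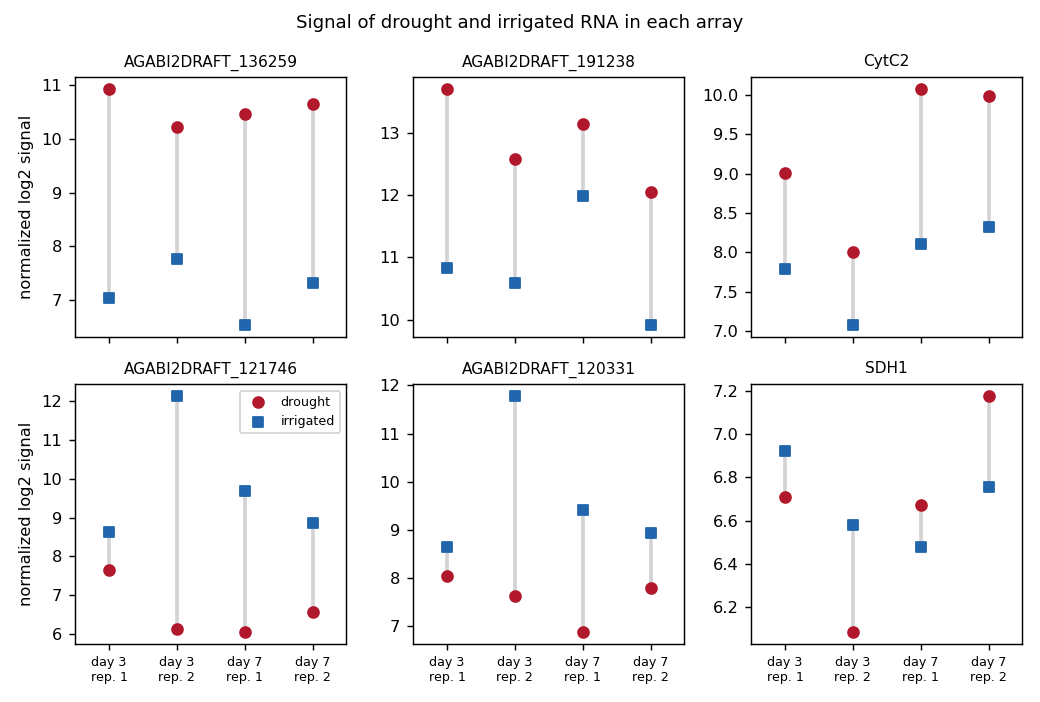
Normalized log2 signal (y axis, own scale per gene) of drought RNA (red circles) and irrigated RNA (blue squares) on each of the 4 arrays, joined by a grey line within an array. In AGABI2DRAFT_136259, AGABI2DRAFT_191238 and CytC2 the drought channel was the brighter on every array, in AGABI2DRAFT_121746 and AGABI2DRAFT_120331 the dimmer on every array, and in SDH1 it changed sides between the days.

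Other large positive means rested on fewer arrays. AGABI2DRAFT_193554 had ratios of 2.23, 1.27 and 2.95 but -0.09 on day 7 replicate 2, and AGABI2DRAFT_187819 had 1.44, 0.61, 2.79 and -0.04. For AGABI2DRAFT_195355 they were 2.02, 0.14, 2.12 and 0.68, with drought levels all above the irrigated ones. In 5 of the 12 largest positive changes, both replicate 1 ratios (drought in Cy3) were above both replicate 2 ratios, as in 27.2% of all tested genes, and in 3 of the 12 (25%) both were below, as in 10.4% of all. Each mean holds both dye orientations equally, so a term for dye cannot alter the log2 change of a gene with all 4 values. The changes of AGABI2DRAFT_193554 (1.59) and AGABI2DRAFT_136259 (3.41) were thus bound to stay the same. Only their adjusted p could move, and it was 0.531 and 0.080 with that term (limma). In all, 5 of the 12 owed their mean to 1 array, and these include the 3 whose replicate 1 ratios were both below (AGABI2DRAFT_195164, AGABI2DRAFT_139182 and AGABI2DRAFT_188048). AGABI2DRAFT_195164, AGABI2DRAFT_139182, AGABI2DRAFT_188048 and AGABI2DRAFT_191519 stood at 4.0, 3.34, 3.37 and 2.94 on day 3 replicate 2 and between -0.26 and 0.44 on the other arrays, and AGABI2DRAFT_114522 stood at 3.85 on day 7 replicate 1 and at 0.14 to 0.25 elsewhere.

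The 16 genes with a log2 ratio below -0.5 on all 4 arrays (3.54% of the 452) had nearly the same pattern as one another. Their ratios were smallest in size on day 3 replicate 1 (-0.97 to -0.52, median -0.85) and largest on day 3 replicate 2 (-6.00 to -2.63, median -5.42). On day 7 they ran from -3.61 to -0.55 (median -3.10) on replicate 1 and from -2.33 to -0.58 (median -1.85) on replicate 2. In 15 of the 16, the 4 arrays had the same order, and day 3 replicate 2 was the lowest array in all 16. The arrays of day 3 thus held both extremes. Over all 452 tested genes, 47 had that full order and 212 had day 3 replicate 2 as the lowest array. Medians of all tested genes lay between -0.14 and 0.01 on the same arrays. No symbol is given for any of the 16, and no pair of them is next to each other in the gene order of the reference assembly (closest pair 18 places apart). Without day 3 replicate 1, 29 genes met the same limit.

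**Figure D3:**
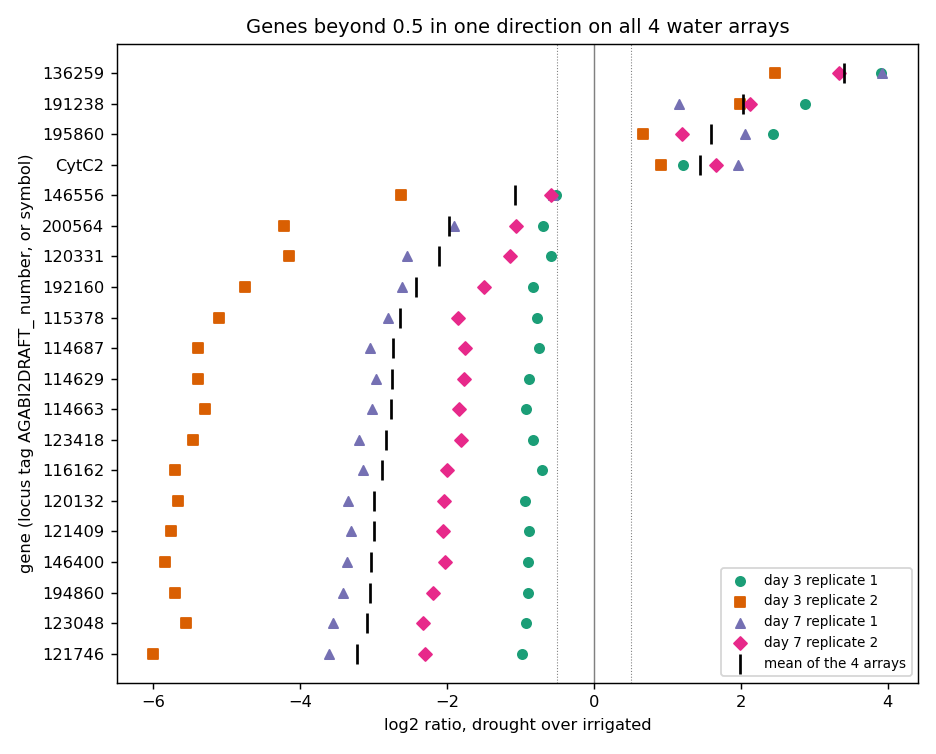
Log2 ratio of drought over irrigated RNA (x axis) for the 20 genes beyond 0.5 in one direction on all 4 arrays, with a coloured symbol per array and a black bar for the mean. The 16 lower genes share 1 order of arrays in 15 cases, with day 3 replicate 2 far to the left and day 3 replicate 1 near -0.85, while the 4 higher genes have no common order.

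AGABI2DRAFT_121746 had the largest negative mean, from ratios of -0.97 and -6.00 on day 3 and -3.61 and -2.30 on day 7. Its irrigated level was 8.62, 12.12, 9.67 and 8.87 and its drought level 7.65, 6.12, 6.06 and 6.57. The irrigated channels were higher throughout and spread widely, with day 3 replicate 2 the brightest. Drought signal was well above background on 2 of the 4 arrays, so the mean log2 change of -3.22 ± 2.14 (SD, n = 4 arrays; adjusted p 0.442, limma) is not exact. It was -5.81 with processed signals and -2.29 without day 3 replicate 2. AGABI2DRAFT_123048 (-3.09 ± 1.96), AGABI2DRAFT_194860 (-3.05 ± 2.05) and AGABI2DRAFT_146400 (-3.03 ± 2.13) came next, each with an adjusted p of 0.442.

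AGABI2DRAFT_120331 was the single member of the 16 measured in both channels of all 4 arrays. Ratios were -0.59, -4.15, -2.54 and -1.14, from drought levels of 8.04, 7.63, 6.87 and 7.79 and irrigated levels of 8.63, 11.78, 9.41 and 8.93. Every irrigated level was above every drought level, and the mean was -2.11 ± 1.59 (SD, n = 4 arrays; adjusted p 0.454, limma). AGABI2DRAFT_146556, at the other end, had no drought channel well above background. Its ratios were -0.52, -2.63, -0.55 and -0.58, and its irrigated signal was at least 1.85-fold higher in the mean log2 level over the 4 arrays. Day 3 replicate 2 stood far from the others, and without it the bound was 1.46-fold.

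Over the 16 genes the irrigated channel was well above background on every array. Their drought channel was so for 15 genes on day 3 replicate 1 and 13 on day 3 replicate 2, but for 3 and 1 on the day 7 arrays. The median irrigated level was 8.20, 11.55, 9.31 and 8.53, and the median drought level 7.30, 6.03, 6.11 and 6.57, in array order. Day 3 replicate 1 thus combined the lowest irrigated with the highest drought median. The pooled median of the 16 was -2.79 against -0.029 over all tested genes. Since these genes were picked by their ratios, that median is a description. It was -5.02 with the scanner software's processed signals (genes from -5.81 to -2.87) and -1.93 without day 3 replicate 2 (-2.29 to -0.55). With each dye swap counted as 1 value, 14 of the 16 were called (lowest adjusted p 0.022, limma), and AGABI2DRAFT_200564 and AGABI2DRAFT_146556 were not. Over all 452 tested genes that fit called 18. It leaves the spread between the arrays of a day out of the error, and the 16 were picked by these same ratios. The count of 14 is thus also a description.

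**Figure D4:**
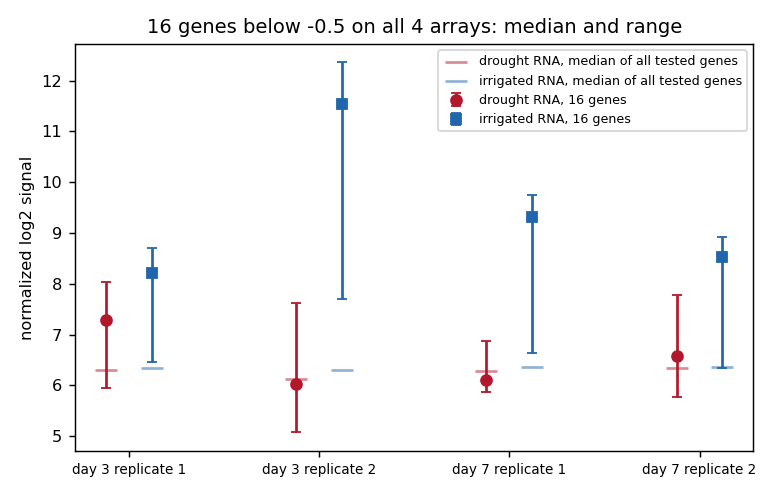
Median (symbols) and lowest to highest value (bars) of the normalized log2 signal over the 16 genes below -0.5 on all 4 arrays, for drought and irrigated RNA on each array, with the median of all 452 tested genes as pale dashes. Irrigated medians ran from 8.20 to 11.55 and drought medians from 6.03 to 7.30.

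AGABI2DRAFT_123230 (-2.81 ± 2.21, SD, n = 4 arrays) had the same order of arrays and stood at -0.37 on day 3 replicate 1, just outside the limit. The lowest p-values on the negative side belonged to genes with smaller differences. AGABI2DRAFT_199236 had ratios of -0.50, -0.45, -0.37 and -0.29, with drought levels of 6.93 to 7.28 all below irrigated levels of 7.38 to 7.69. The log2 change was -0.40 ± 0.09 (SD, n = 4 arrays; adjusted p 0.442, limma). AGABI2DRAFT_136889 (-0.65 ± 0.32), AGABI2DRAFT_133899 (-0.91 ± 0.50) and AGABI2DRAFT_136959 (-0.32 ± 0.09) were likewise below 0 on all 4 arrays and had overlapping levels.

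Over the whole table, the ratio was above 0 on all 4 arrays for 41 genes (9.07%) and below 0 for 84 (18.6%). The first number was 67 without day 3 replicate 2 and 70 without day 7 replicate 2. Drought levels lay wholly above irrigated levels for 9 of 450 genes with all values (2%) and wholly below for 49 (10.9%). For 28 of those 49 the drought channel was above background on no array, and these entered the test through their irrigated signal alone, as did 69 of the 452 genes in all. Among the 126 genes measured everywhere the counts were near even, with 12 above and 11 below 0 on all arrays. Every one of the 20 genes beyond 0.5 in size on all 4 arrays kept 1 sign, and in none did the sign follow dye orientation or day.

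Of 55 genes on the array with a symbol of the respiratory chain, 7 were above background in any channel and 3 were tested, with 0 called. They were CytC2 and the flavoprotein and iron-sulphur subunits of succinate dehydrogenase (complex II), SDH1 and SDH2. SDH1 had ratios of -0.21 and -0.49 on day 3 and 0.19 and 0.42 on day 7, on low levels (6.09 to 7.17 under drought and 6.48 to 6.92 when irrigated). The channels overlapped, and the pooled log2 change was -0.02 ± 0.41 (SD, n = 4 arrays; adjusted p 0.953, limma). SDH2 had ratios of 0.25, 0.07, 0.43 and -0.15, with each channel above background on 2 arrays (log2 change 0.15 ± 0.25, adjusted p 0.624).

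Complex I subunits were seen sporadically, 4 of 24 in any channel (NdufS6, NdufA13, NdufS7 and NdufA1), and no symbol of complexes III and IV, the ATP synthase or the alternative oxidase group was above background. Fet3, whose yeast namesake is the multicopper ferroxidase of iron uptake, was above background in the irrigated channel of both day 3 arrays and in no drought channel. Its ratios were 0.00, -0.58, 0.13 and -0.26 (log2 change -0.18, adjusted p 0.624, limma). Neither channel was above background on the day 7 arrays, so no bound on the fold can be given. The log2 change was -1.39 with processed signals. In drought RNA of day 3 replicate 2, and nowhere else, hspE and SKN7 were above background. That channel, in Cy5, had 615 probes above background, against 318 to 362 in the other drought channels and 318 to 718 over the Cy5 channels of both arms. SKN7 in yeast is a regulator of the response to osmotic and oxidative stress. Of 8 stress signalling symbols on the array, it was the only 1 above background in any channel. The 6 laccases, 2 catalases and 4 other hsp genes were not above background in any channel. No symbol was matched for trehalose and mannitol metabolism, general heat shock proteins, cell wall enzymes, hydrophobins, autophagy or riboflavin synthesis, nor for the hydrophobin markers of mycelium and fruit body, so the tissue label was not checked.

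By day, 0 genes passed the test on either (0%), with 24 at an unadjusted p under 0.05 on day 3 (5.31%) and 16 on day 7 (3.54%). AGABI2DRAFT_136259 had a log2 change of 3.18 ± 0.44 (SE, 2 arrays) on day 3 and 3.63 ± 0.44 on day 7, with an adjusted p of 0.493 and 0.278 in limma. CytC2 had 1.07 ± 0.16 and 1.81 ± 0.16 (adjusted p 0.493 and 0.278). Without day 3 replicate 1, day 3 gave 83 calls (24 higher, 59 lower). Those rest on replicate 2 alone, whose spread was then taken from the day 7 arrays. At an unadjusted p under 0.05, day 3 had 125 genes without its replicate 1 and 8 without either day 7 array, and day 7 had 55 without either day 3 array.

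Whether the response differed between day 7 and day 3 was tested as a difference of log2 changes, and 0 genes passed (0%, with 12 at an unadjusted p under 0.05, or 2.65%). The latter number was 111 without day 3 replicate 1, 19 without day 3 replicate 2 and 6 without day 7 replicate 2. AGABI2DRAFT_64309 had the largest positive difference (2.39 ± 1.80 SE), with ratios of -2.20 and -0.58 in replicate 1 (day 3, day 7) and of 0.21 and 3.37 in replicate 2. AGABI2DRAFT_114522 (1.86 ± 1.40) and AGABI2DRAFT_186655 (1.72 ± 1.11) followed, and AGABI2DRAFT_195164, AGABI2DRAFT_182197 and AGABI2DRAFT_139182 had the largest negative ones (-2.0, -1.78 and -1.62). Each of these 5 rested on 1 array. The difference was 0.66 ± 0.21 for SDH1 and 0.74 ± 0.22 for CytC2, with an adjusted p of 0.805 for both in limma. AGABI2DRAFT_189493, chosen after its values were seen, had the smallest p, from day 3 and day 7 changes of -0.09 and 0.96 (difference 1.04 ± 0.16, adjusted p 0.805).

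The ratios of the 2 arrays of a day were correlated across genes, which are not independent replicates. Pearson's r was 0.37 on day 3 and 0.57 on day 7 (Spearman's rho 0.40 and 0.35, 451 genes). Without the 16 genes lower on all arrays, r was 0.24 and 0.33. Between arrays of different days, with the 16 kept, r was lowest for day 3 replicate 1 with day 7 replicate 2 (0.24, rho 0.094). It was highest for day 3 replicate 2 with day 7 replicate 1 (0.69, rho 0.32). The r of 0.37 and 0.57 for arrays of the same day lay within that range. Duplicate spots of the same probe within an array differed by a median of 0.094 to 0.116 log2 units and correlated at 0.918 to 0.990 (233 to 235 genes), whereas the 2 arrays of a day differed by a median of 0.300 on day 3 and 0.20 on day 7. Spot error was thus well below the difference between arrays.

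Day 3 replicate 2 stood apart from the other arrays. The SD of its ratios over tested genes was 1.37, against 0.52 to 0.77 on the others. It alone had a ratio above 1 for 27 genes and below -1 for 43. Across those 27 genes its ratios ran from 1.0 to 4.0 (median 1.83), and the median on the other arrays was 0.019. The drought channel was well above background for all 27 on that array and the irrigated channel for 5. Across the 43 genes the ratios ran from -3.09 to -1.02 (median -2.12), with a median of -0.26 on the other arrays. The irrigated channel was above background there for all 43 and the drought channel for 3, and for 35 the drought channel was so on no array. Drought and irrigated levels did not overlap over the 4 arrays for 24 of the 43. Over all tested genes, drought levels lay wholly below irrigated ones in 49 of 450 (10.9%). The 43 were picked by a low ratio on 1 of these arrays, so the count of 24 is a description.

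**Figure D5:**
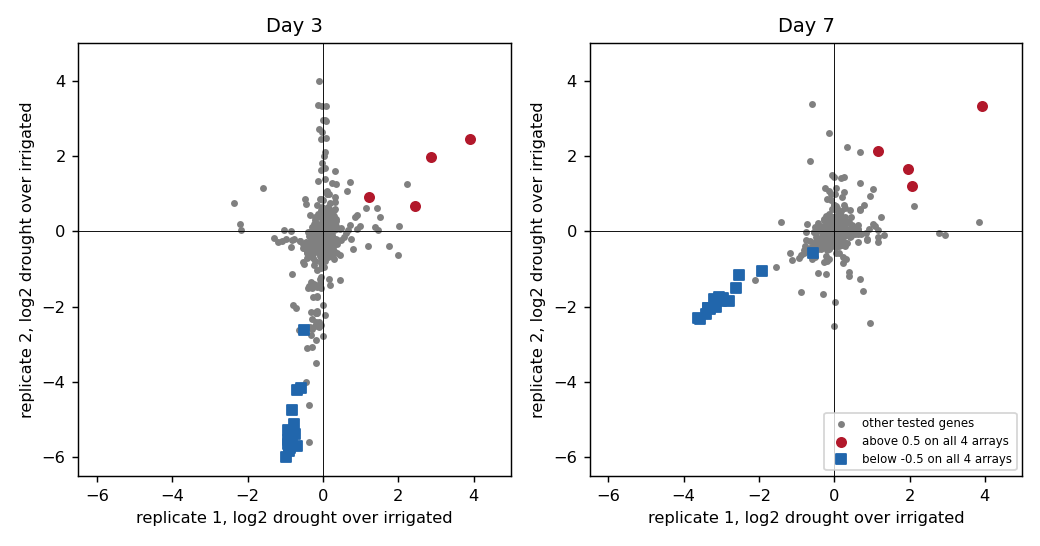
Log2 ratio of drought over irrigated RNA in replicate 1 (x axis) against replicate 2 (y axis) for the tested genes on day 3 (left) and day 7 (right), coloured as in the plot of the pooled response. On day 3 most large ratios lie along the vertical axis, that is on replicate 2 alone, and on day 7 most of the 16 lower genes lie further from 0 in replicate 1 (median -3.10) than in replicate 2 (median -1.85).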

How the data were processed

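Scanner tables were deposited for each array and made with Agilent Feature Extraction 11.5.1.1, per the file headers. They hold the spot and background intensity of 2 dyes, processed signals and, as deposited, log10 values of red divided by green that served only to check direction. A deposited table gives the authors' log2 ratio of red over green per spot. The submitters' processing notes name limma, and normexp with an offset of 16 and loess matched that table to within 5e-10 (column medians -0.00203 to 0.00555), so its scale, direction and lack of centring are known.

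Median signals were corrected by normexp (offset 50) and normalized by loess within each array, with control spots at weight 0, in limma 3.58.1 (R 4.3.3). Outlier spots (16 to 37 per array) were left out, no gene spot was saturated, spots were averaged per gene and ratios turned to drought over irrigated. Of 10413 probes, 10348 matched a locus tag of Agabi_varbisH97_2 and 88 a symbol. Channel levels were taken after loess and Aquantile normalization. LmFit and eBayes were run on the 4 arrays (residual degrees of freedom 3, prior 1.48), with Benjamini-Hochberg adjustment. Day results came from 1 term per day. For 2 tested genes 1 array was missing. Ratios and p-values were tested on simulated data first.

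Genes were named by rule: the 12 largest changes and 4 smallest p-values in each direction, genes beyond 0.5 on all 4 arrays, the 3 largest day differences each way, and genes with a symbol. The arrays, lists and tests were chosen with earlier results of these data known. The array number limits precision.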

Additional observations from a re-analysis of the deposited data

Results flagged for a closer look

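For 6 named genes 1 array lay far from the other 3, by the gap to its neighbour as a share of the range. Chance flags about 1 in 20 such sets of 4 values, and 39 genes were looked at. Those genes were named for extreme or shared ratios, so the 1 in 20 is no measure of chance for them. On day 3 replicate 2 these were AGABI2DRAFT_195164 (log2 ratio 4.0), AGABI2DRAFT_139182 (3.34), AGABI2DRAFT_188048 (3.37), AGABI2DRAFT_182197 (3.34) and AGABI2DRAFT_146556 (-2.63). On day 7 replicate 1 it was AGABI2DRAFT_114522 (3.85). Drought RNA of day 3 replicate 2 had 615 probes above background, likewise far above the 318 to 362 of the other drought channels. Drought RNA was in Cy5 on that array, as it was on day 7 replicate 2 (318 probes). The irrigated Cy5 channels had 718 (day 3 replicate 1) and 524 (day 7 replicate 1), so 615 lies within the range of that dye.

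SDH1 had negative ratios on both day 3 arrays and positive ratios on both day 7 arrays, a difference of 0.66 on the log2 scale that had an unadjusted p of 0.043 and an adjusted p of 0.805 in limma.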

How the results depend on the processing

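For the pooled days, 0 calls became 1 (AGABI2DRAFT_136259) with the deposited ratios, median centring, no filter, day as a random block (correlation -0.096), a separate-channel fit (intraspot correlation 0.168), and without day 3 replicate 2, so that leaving out an array gave 0 to 1. Only genes measured everywhere gave 3 calls. Counting each dye-swap pair as 1 value gave 18 (3 higher, 15 lower), of which 14 are among the 16 genes below -0.5 on all arrays and 1 is AGABI2DRAFT_123230. Day 3 gave 1 call with median centring and 0 to 83 with an array left out. Day 7 gave 1 with median centring, 4 without a filter and 2 with genes measured everywhere, and 0 with any array left out. The day difference gave 0 calls in each of 12 alternatives, leave-one-out fits included (0 to 0).

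Genes above 0.5 on all arrays numbered 11 with processed signals and 4 to 8 with an array left out. Those below -0.5 numbered 25 with offset 16, 67 with processed signals, 1 with genes measured everywhere and 16 to 29 with an array left out. Processed signals shifted the median of all tested genes by -0.15, and genes at an unadjusted p under 0.05 then numbered 88 pooled (17 higher, 71 lower), 58 on day 3 and 41 on day 7. The separate-channel fit gave 69 pooled, and day 7 had 28 with deposited ratios and 27 (7 higher, 20 lower) with median centring. Without a filter, over 10413 probes, they numbered 324 pooled, 380 on day 3, 208 on day 7 and 215 for the difference. Among genes measured everywhere they numbered 11, 9 and 5 (pooled, day 3, difference). The correlation of the arrays of a day was 0.19 (day 3) and 0.28 (day 7) without a filter, and 0.31 on day 7 with genes measured everywhere. The cause of these changes was not tested where none is given.

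In the replicate block, where replicate number is also dye orientation, 0 genes were called for the pooled days (lowest adjusted p 0.080, limma), day 3, day 7 and their difference, and unadjusted counts were 40, 25, 16 and 14. Deviations of same-numbered arrays correlated at -0.14 between the days (Spearman's rho 0.047), so the numbers were not taken as pairs, although same-numbered arrays share dye orientation. Across genes, the ratios of the replicate 1 arrays of both days had a Spearman's rho of 0.51 and those of the replicate 2 arrays 0.36. With the numbers crossed, a choice made after seeing the data, 0 genes were called.

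Of the 39 named genes' values, 9 changed sign, those of 6 genes. SDH1 was 0.0081 with median centring and ran from -0.17 to 0.13 with an array left out, above 0 without either day 3 array. AGABI2DRAFT_64309 was -0.13 with processed signals. With an array left out it ran from -0.86 to 1.00, and AGABI2DRAFT_186655 from -0.37 to 0.76, both lowest without day 7 replicate 2. AGABI2DRAFT_195164 ran from -0.083 to 1.31, AGABI2DRAFT_188048 from -0.015 to 1.19 and AGABI2DRAFT_182197 from -0.10 to 1.08, each lowest without day 3 replicate 2. Some of these signals were low. No cause was tested.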
